A study of Mus musculus with 12 samples.

Results

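The Hox genes of clusters a to d, 38 of the 51341 genes in the table, were followed through the trigeminal ganglia of 12 mice. They were chosen by symbol: Hox, a cluster letter from a to d and a number, with antisense genes left out. Clusters a and b held 10 of them each, and clusters c and d held 9 each. The annotation lists 39 such genes, and 1 of them, Hoxa2, is not analysed here. The ganglia came from CD1 mice, an outbred stock: 6 responders to PACAP, a neuropeptide studied in migraine, and 6 nonresponders, with 3 males and 3 females in each group. Ganglia were frozen after dissection, and polyadenylated RNA was sequenced from 1 library per mouse. The dose and timing of PACAP, the scoring of the response and the animals' ages are not given in these sources. Values are FPKM, fragments counted on a gene divided by its length and the depth of the library, so that levels can be set side by side between genes.

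Hox genes encode homeodomain transcription factors that give cells their position along the head-to-tail axis. Within a cluster, genes with low numbers are switched on in the hindbrain and genes with higher numbers in progressively more posterior trunk, and genes of the same number in different clusters are paralogues. The trigeminal ganglion forms from neural crest and placode at the front of the hindbrain, ahead of the territory of most Hox genes. Hoxd1 is known in mice as a gene of nociceptive sensory neurons, where it depends on nerve growth factor and shapes their central connections.

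The start sites of Hoxd1, Hoxd8 and Hoxd10 are shown because Hoxd1 was the highest Hox gene, Hoxd8 was the next in rank, and Hoxd10 lies in the same cluster but was near 0 in all mice but 1. Each sequence is the 250 bases before the RefSeq start on the plus strand of GRCm38.p6, at chr2:74762730-74762979 for Hoxd1, chr2:74704365-74704614 for Hoxd8 and chr2:74691641-74691890 for Hoxd10. Capitals mark matches to CCAAT or GGGCGG on either strand.
Hoxd1: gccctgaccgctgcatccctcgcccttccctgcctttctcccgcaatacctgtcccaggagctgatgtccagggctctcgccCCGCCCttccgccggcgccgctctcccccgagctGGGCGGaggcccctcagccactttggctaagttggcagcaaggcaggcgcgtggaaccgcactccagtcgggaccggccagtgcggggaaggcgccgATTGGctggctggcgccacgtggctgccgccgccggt
Hoxd8: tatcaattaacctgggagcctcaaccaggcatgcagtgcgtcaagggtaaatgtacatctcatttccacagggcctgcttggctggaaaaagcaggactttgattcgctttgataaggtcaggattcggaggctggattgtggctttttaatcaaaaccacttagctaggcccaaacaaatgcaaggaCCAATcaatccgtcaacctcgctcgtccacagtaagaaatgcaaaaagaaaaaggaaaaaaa
Hoxd10: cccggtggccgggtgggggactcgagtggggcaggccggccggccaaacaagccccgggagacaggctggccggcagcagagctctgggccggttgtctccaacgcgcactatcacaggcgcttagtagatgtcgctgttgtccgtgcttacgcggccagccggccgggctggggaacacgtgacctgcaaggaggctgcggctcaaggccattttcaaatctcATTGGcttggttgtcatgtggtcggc
The Hoxd1 window holds 24 CpG dinucleotides and 71.6% G and C bases, the Hoxd8 window 6 and 44.4%, and the Hoxd10 window 20 and 65.6%. The medians are 13 and 59.2% over 23 windows of 21 Hox genes, and 6 and 52.4% over all 32851 promoters in the RefSeq table. CCAAT occurs in 13 of the 23 Hox windows and in 33.9% of all promoters, and GGGCGG in 10 of the 23 and in 32.7%. TATAAA (4 of 23, against 12.4%), TAATTA (2 of 23, against 4.84%) and TGATTNAT (1 of 23, against 2.83%) were searched on both strands too, and the 3 printed windows hold none of them. Haglr, a noncoding RNA gene on the opposite strand, starts 84 bases from Hoxd1, at position 167 of the printed Hoxd1 sequence.

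All libraries held transcripts of a sensory ganglion, and some held many of other tissues. Total FPKM ran from 286388 to 358590 per mouse, and all 10 trigeminal sensory neuron markers were above 0 in all 12 mice. Pou4f1, a sensory neuron transcription factor gene, was at 22.1 to 45.3 FPKM in responders, against 29.3 to 43.7 in nonresponders. Responder 1 and nonresponder 4 stood apart from the rest on the first 2 principal components. Pituitary genes summed to 78240 FPKM in responder 1, against at most 6894 in the other mice. Marrow myeloid genes summed to 4328 FPKM in nonresponder 4, against at most 892.5 in the other mice. The first number in each sample's description, whose meaning the labels do not give, was never shared between the groups, so that the number and the response cannot be told apart. Exact values of 0 are reported as listed at 0, because some widely used genes were also listed low, and not only in single libraries. Over the 12 mice Actb ranged from 9.7 to 356 FPKM and Eef2 from 1.41 to 7.39. In whole ganglia, fewer cells of a type and less RNA per cell cannot be told apart.

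Transcripts of the Hox genes came almost wholly from cluster d. Its genes lie on the plus strand of chromosome 2 of GRCm38, from Hoxd13, which starts at 74668310, to Hoxd1 (ENSMUSG00000042448), a protein-coding gene from 74762980 to 74765142. Summed over its 9 genes, cluster d stood at 13.8 to 28.3 FPKM in responders, against 17.9 to 38.6 in nonresponders. That was 88.4% to 99.9% of all Hox FPKM in a mouse. Cluster a reached at most 0.991 FPKM in responders, against 1.46 in nonresponders. For cluster b the highest sums were 1.64 FPKM in responders and 1.34 in nonresponders, and for cluster c they were 0.265 and 1.06. Of the 29 genes of clusters a, b and c, 0 had a mean of 0.1 FPKM over the 12 mice. The highest median among them was 0.0642 FPKM, for Hoxb4. In cluster d, 7 of 9 genes had a mean of at least 0.1 FPKM, and 5 without nonresponder 6. Hoxd11 was just inside that limit with a mean of 0.265 FPKM, which came from 1 mouse, and Hoxb4 just outside with 0.0882.

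**Figure D1:**
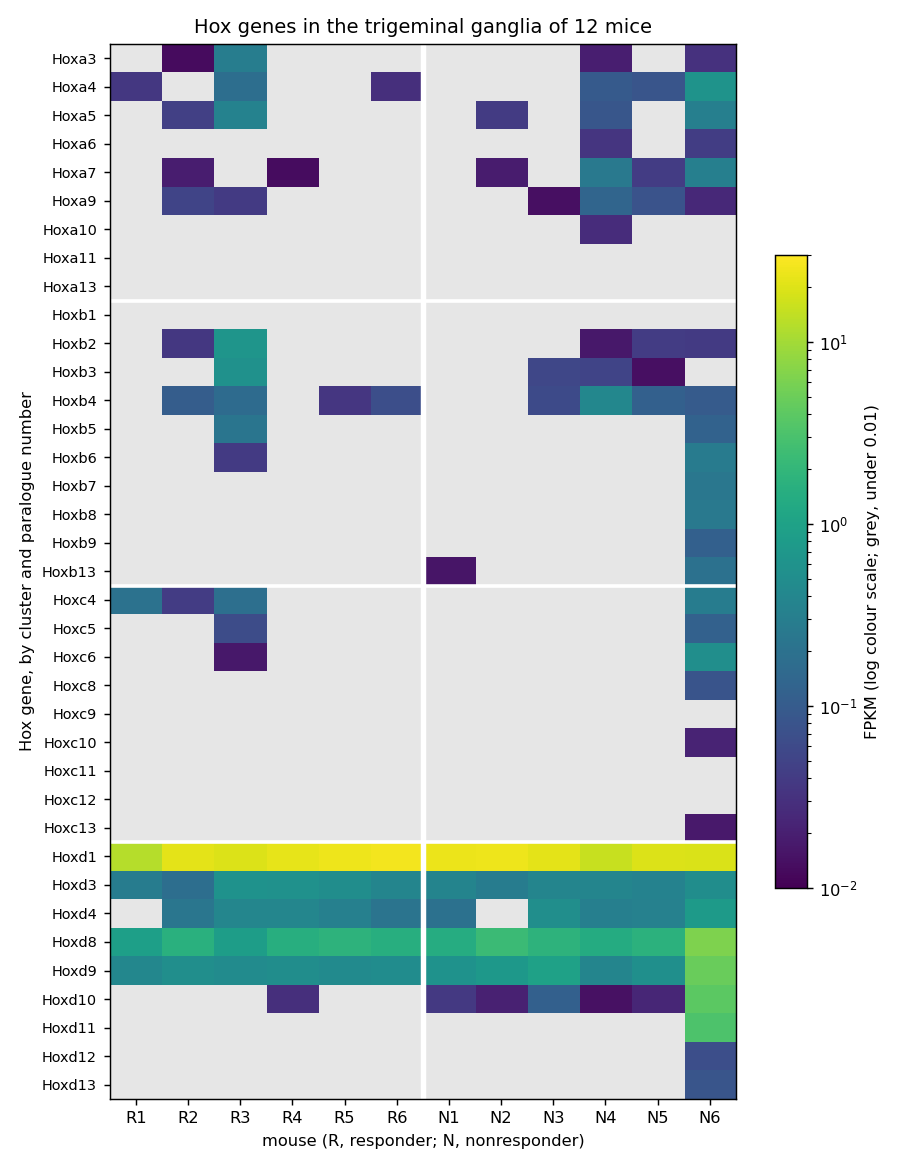
FPKM of Hox genes (rows, by cluster and paralogue number) in 12 mice (columns; R, responder; N, nonresponder) on a log colour scale, with values under 0.01 in grey. Hoxd1 is the brightest row in every mouse, and the column of nonresponder 6 has the most values above the grey level.

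Hoxd1 was the highest Hox gene in every mouse. Its level was 12.2, 21.3, 19.8, 22.6, 24.4 and 25.7 FPKM in responders 1 to 6, and 23.5, 24.7, 21.8, 15.5, 19.8 and 18.8 FPKM in nonresponders 1 to 6. Responder 1 and nonresponder 4 were lowest, and the groups overlapped over most of their range. Over all mice the mean was 20.8 ± 3.95 FPKM (SD, n = 12), and Hoxd1 made up 79.1% to 90.2% of the summed Hox FPKM in 11 mice and 44.2% in nonresponder 6. Its paralogue Hoxb1, which patterns the hindbrain in the embryo, was listed at 0 in all 12 mice.

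The libraries lowest in Hoxd1 were also lowest in the summed level of sensory neuron genes. They were also those highest in transcripts of other tissues, with pituitary genes at 78240 FPKM in responder 1 and marrow myeloid genes at 4328 in nonresponder 4. Such transcripts take up part of the library depth by which FPKM is divided, and their part in the low values was not tested. The 10 trigeminal neuron markers summed to 1278 FPKM in responder 1 and 1462 in nonresponder 4, the lowest Hoxd1 libraries, and to at most 2662 in the other mice. Single members did not all follow the sum, to which Tubb3, Nefh and Prph gave the most: Avil, a sensory neuron actin-binding protein gene, was highest of all mice in responder 1 at 30.3 FPKM. As a ratio to Pou4f1, Hoxd1 stood at 0.481 to 0.609 in responders, against 0.437 to 0.626 in nonresponders. The coefficient of variation of that ratio was 10.7%, that of the ratio to the whole list was 11.2%, and that of Hoxd1 FPKM itself was 19.0%. Haglr, which starts beside Hoxd1, was at 4.68 ± 0.896 FPKM in responders, against 4.90 ± 0.650 in nonresponders (SD, n = 6 each). Hoxd1 was 3.48 to 5.24 times Haglr in all mice. The pair shares no annotated exon bases.

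**Figure D2:**
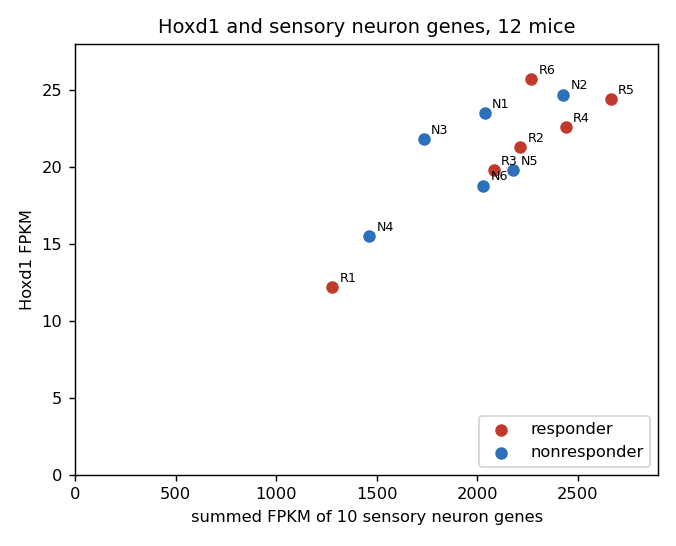
Hoxd1 FPKM (vertical) against the summed FPKM of 10 sensory neuron genes (horizontal) in 12 mice (red, responder; blue, nonresponder; R and N with the mouse number). Responder 1 and nonresponder 4 are lowest on both axes, and the groups are mixed along the rest.

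Hoxd3 and Hoxd4, anterior genes of the cluster that are active in the embryonic hindbrain and neck, were low. Hoxd3 was at 0.286, 0.183, 0.584, 0.576, 0.506 and 0.381 FPKM in responders 1 to 6, and at 0.373, 0.285, 0.377, 0.386, 0.347 and 0.513 in nonresponders 1 to 6. Hoxd4 was at 0, 0.230, 0.399, 0.393, 0.325 and 0.221 FPKM in responders 1 to 6, and at 0.201, 0.00141, 0.519, 0.319, 0.335 and 0.788 in nonresponders 1 to 6. The groups overlapped for both genes. Hoxd3 shares 388 exon bases with Hoxd4 and 2225 with the overlapping gene Gm28230, all on the same strand, and both Hox genes share 347 bases with the antisense gene Hoxd3os1, so their split of fragments is uncertain. Use of read strand in the counting is not stated.

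Hoxd8 and Hoxd9, genes of the middle of the cluster that are active in the embryonic trunk, were listed in every mouse. Hoxd8 was at 0.925, 1.62, 0.868, 1.53, 1.77 and 1.51 FPKM in responders 1 to 6, and at 1.41, 2.33, 1.78, 1.37, 1.69 and 6.46 in nonresponders 1 to 6. Hoxd9 was at 0.413, 0.518, 0.470, 0.501, 0.458 and 0.496 FPKM in responders 1 to 6, and at 0.590, 0.707, 0.990, 0.386, 0.535 and 4.77 in nonresponders 1 to 6. Nonresponder 6 was the highest mouse for both genes, and the other 5 nonresponders overlapped the responders. Without that mouse the means were 1.53 ± 0.405 FPKM for Hoxd8 and 0.551 ± 0.169 FPKM for Hoxd9 (SD, n = 11).

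Hoxd10 and Hoxd11, posterior genes known for the lumbar spinal cord and the limb, were almost confined to 1 library. Hoxd10 was listed at 0 in 5 responders and at 0.0295 FPKM in responder 4, and at 0.0372, 0.0208, 0.116, 0.0142, 0.0239 and 3.98 FPKM in nonresponders 1 to 6. Hoxd11 was listed at 0 in all 6 responders and in 5 nonresponders, and at 3.18 FPKM in nonresponder 6. Outside nonresponder 6 the Hoxd10 values stood for about 1 to 5 fragments each, and in nonresponder 6 for about 171. The most posterior genes of the cluster, Hoxd12 and Hoxd13, were listed only in nonresponder 6, at 0.0690 and 0.0833 FPKM.

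**Figure D3:**
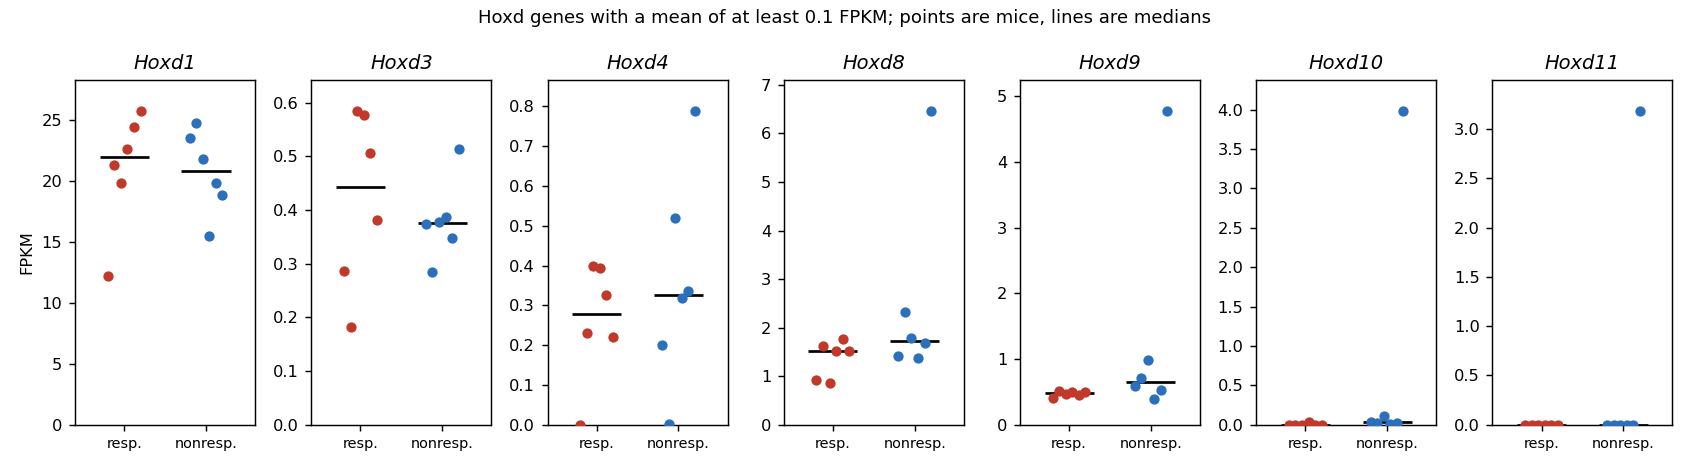
FPKM of the 7 Hoxd genes with a mean of at least 0.1 FPKM in 6 responders (left, red) and 6 nonresponders (right, blue), each panel with its own axis from 0; points are mice and lines are group medians. One nonresponder lies far above all other mice for Hoxd8 to Hoxd11, at 6.46, 4.77, 3.98 and 3.18 FPKM.

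Neighbours in the order of levels were compared by the exact sign-flip permutation test on paired log2(FPKM + 0.1) values, 2-sided, for 8 pairs. The pairs were taken from the order of means in the same mice, so the p-values are no separate check of that order. The ranks of Hoxd10 and Hoxd11 came from nonresponder 6, without which their means were 0.0220 and 0 FPKM. Hoxd1 exceeded Hoxd8 in 12 of 12 mice by 3.53 ± 0.69 on the log2 scale (SD, n = 12), and Hoxd8 exceeded Hoxd9 in 12 of 12 by 1.24 ± 0.41, each with an exact p = 0.000488, the smallest that 12 mice allow. Hoxd9 exceeded Hoxd3 in 8 mice (exact p = 0.0147) and Hoxd3 exceeded Hoxd10, which was listed at 0 in 5 mice, in 11 (exact p = 0.00635). Hoxd10 had a higher mean than Hoxd4 but was higher in only 2 mice (mean log2 difference -1.14, exact p = 0.0205). Hoxd4 exceeded Hoxd11 in 10 mice and Hoxb4 had the lower mean but was below Hoxd11 in only 1, and no p is given for these pairs because Hoxd11 was listed at 0 in 11 mice. Hoxb4 and Hoxa4 did not differ beyond their spread (exact p = 0.543). These p-values are not adjusted for the 8 pairs.

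By paralogue number, the highest sum after the level of Hoxd1 was that of number 8, at 0.868 to 1.77 FPKM in responders, against 1.37 to 6.79 in nonresponders. Number 9 followed with 0.413 to 0.569 FPKM in responders, against 0.524 to 4.91 in nonresponders. Numbers 6 and 7 reached at most 0.0558 and 0.0190 FPKM in responders, against 0.849 and 0.549 in nonresponders. Cluster d has no genes numbered 5 to 7 in this set.

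Outside cluster d, the highest genes of each cluster were Hoxa4, Hoxb4 and Hoxc4, paralogues of the hindbrain and neck. Hoxa4 was at 0.0362, 0, 0.180, 0, 0 and 0.0295 FPKM in responders 1 to 6, and at 0, 0, 0, 0.0979, 0.0824 and 0.617 in nonresponders 1 to 6. Hoxb4 was at 0, 0.105, 0.162, 0, 0.0357 and 0.0684 FPKM in responders 1 to 6, and at 0, 0, 0.0601, 0.411, 0.116 and 0.101 in nonresponders 1 to 6. Hoxc4 was at 0.207, 0.0410, 0.185, 0, 0 and 0 FPKM in responders 1 to 6, and was listed at 0 in nonresponders 1 to 5 and at 0.291 in nonresponder 6. Single mice hold the high values of each, and the groups overlap. Of all 38 genes, 5 were listed at 0 in every mouse (Hoxa11, Hoxa13, Hoxb1, Hoxc11 and Hoxc12), 25 reached 0.1 FPKM in at least 1 mouse, and 4 did so in all 12.

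Nonresponder 6 carried transcripts of many more Hox genes than the other mice. In it 30 of 38 Hox genes were above 0, against 6 to 13 in 9 mice, 16 in nonresponder 4 and 19 in responder 3, and 21 of the genes had their highest value there. Of 10 genes listed above 0 in 1 mouse only, 9 were listed in nonresponder 6. Without Hoxd1 the Hox genes summed to 23.7 FPKM in nonresponder 6 and to 1.89 to 5.22 in the other mice. Hoxb6, Hoxb7, Hoxb8 and Hoxc6, trunk genes, were at 0.278, 0.236, 0.251 and 0.529 FPKM there and at most 0.0389, 0, 0 and 0.0169 in the others, and Hoxb13 was at 0.200. Hoxd1 at 18.8 FPKM and Hoxd3 at 0.513 lay within the range of the other mice.

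Several Hox genes were among those in which nonresponder 6 was highest relative to the other mice. With 0.1 FPKM added to both values, each gene in that mouse was divided by its highest value in any other mouse, over the 14815 genes with at least 0.5 FPKM in it. Hoxd11 and Hoxd10 were first and second in that order, Hoxc6 ranked 4, Hoxd9 ranked 7, Hoxd8 ranked 14 and Hoxa4 ranked 16. Hoxd4 ranked 63, Hoxd3 2719 and Hoxd1 7295. Hoxd11, Hoxd10, Hoxc6 and Hoxa4 met the limit of 0.5 FPKM in this mouse and in no other, and Hox genes under the limit have no rank. These ranks were chosen after the values were seen and describe 1 library. Gm28309, whose exons share 455 bases with Hoxd11 and 104 with Hoxd10 on the same strand, can take part of their fragments.

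Markers of glia were also high in that library. Of 12 genes of hindbrain and nerve root glia and neurons, 11 were above 0 in nonresponder 6 and 7 had their highest value there. They summed to 515 FPKM in nonresponder 6 and to 83.0 to 404 in the other mice. The 8 genes of satellite glia and nonmyelinating Schwann cells also had their highest sum there, 2787 FPKM, against at most 2316 in the other mice. Of the hindbrain and nerve root list, Mobp, an oligodendrocyte myelin gene, was at 213 FPKM and Gfap, a glial filament gene, at 179. Of 7 spinal and hindbrain interneuron or motor neuron genes, Lbx1 at 0.808 FPKM and Pax2 at 0.781 were above 0 there, and Slc6a5, Slc18a3, Mnx1, Lhx5 and Tlx1 were listed at 0. Of 27 anterior and cranial patterning factors, 4 had their highest value in nonresponder 6. The 27 summed to 47.6 FPKM there, within the 34.4 to 68.7 of the other mice. Among them En1, a homeobox gene of the midbrain-hindbrain border and of ventral spinal interneurons, was at 0.424 FPKM there and at most 0.0398 elsewhere. The part of such cells in the Hox values was not tested. Nonresponder 1, which shares its description number 83, had Hoxd10 at 0.0372 FPKM and Hoxd11 at 0.

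Responder 3 had another set of Hox genes, from the front of clusters a and b. Hoxb2 was at 0.651 FPKM in responder 3 and at most 0.0418 in the other mice, and Hoxb3 was at 0.568 FPKM and at most 0.0542. Both pattern the embryonic hindbrain. Hoxa3 was at 0.294 FPKM in responder 3 and at most 0.0315 elsewhere. Hoxa5 at 0.348 FPKM and Hoxb5 at 0.222 were highest there too, but nonresponder 6 had 0.315 and 0.125. In responder 3, Hoxb7 to Hoxb9 and Hoxd10 to Hoxd13 were listed at 0. Apart from Hoxd10, these genes were listed at 0 in every mouse but nonresponder 6. Hoxb2 shares 953 exon bases with the antisense gene Hoxb3os and Hoxb3 shares 2250, and Hoxb3os was listed at 0 in responder 3. In clusters a, b and c, genes numbered 2 to 5 summed to 2.67 FPKM and genes numbered 6 to 13 to 0.102 in responder 3, against 1.64 and 2.11 in nonresponder 6.

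All 7 spinal and hindbrain interneuron or motor neuron genes were above 0 in responder 3, and 4 of the 7 had their highest value there. They summed to 7.93 FPKM there and to 0.0825 to 1.87 in the other mice. Slc6a5, the glycine transporter gene of inhibitory neurons of the hindbrain and cord, was at 5.51 FPKM and was listed at 0 in the other 11 mice. Lbx1 was at 1.57 FPKM. Slc18a3, Pax2 and Mnx1, at 0.174, 0.537 and 0.0118 FPKM in responder 3, had their highest values in other mice, at 1.64 in nonresponder 4, 0.781 in nonresponder 6 and 0.165 in responder 1. The hindbrain and nerve root list summed to 289 FPKM, within the range of the other mice. The part of these cells in the Hox values was not tested.

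**Figure D4:**
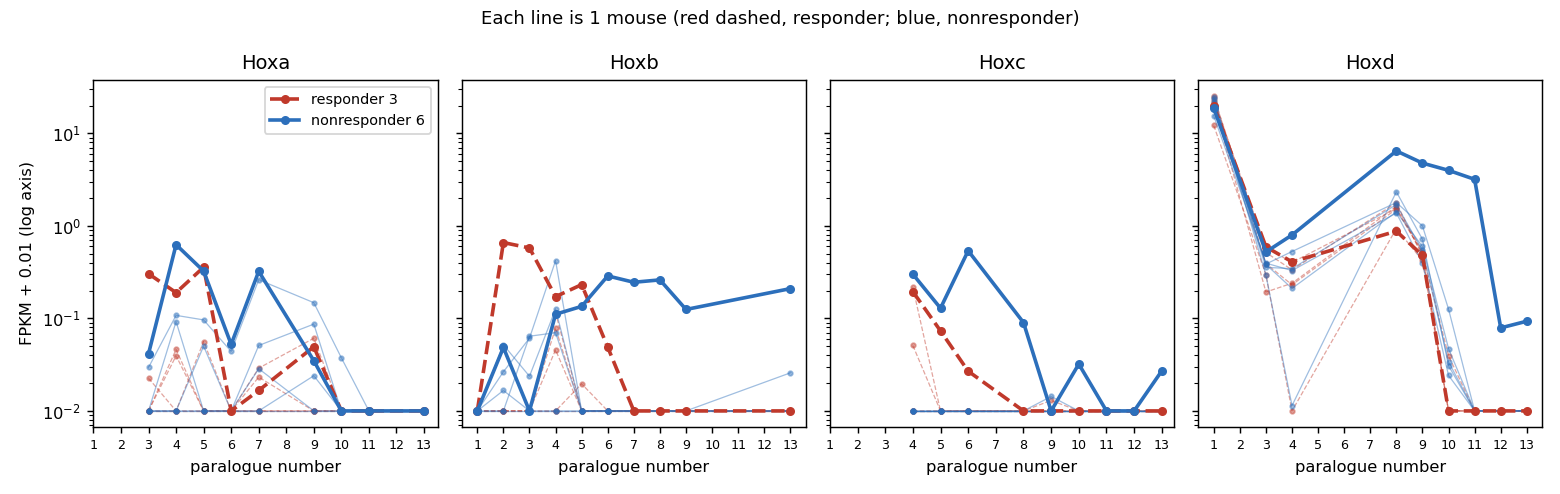
FPKM + 0.01 (log axis) against paralogue number in the 4 clusters, 1 line per mouse (red dashed, responder; blue, nonresponder), with responder 3 and nonresponder 6 drawn thick. Responder 3 is highest for Hoxb2 and Hoxb3 at 0.651 and 0.568 FPKM, and nonresponder 6 for Hoxd8 to Hoxd11.

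The comparison of responders with nonresponders asked whether Hox transcripts differ with the response to PACAP. With limma on log2(FPKM + 0.1) and sex as a covariate, 20640 genes with a mean of at least 0.1 FPKM were tested and 3 passed an adjusted p of 0.05, which is 0.0145%. Of the 7 Hox genes tested, 0 passed, and 0 had an unadjusted p under 0.05, where 1506 genes, or 7.30%, did. Hoxd1 had a log2 fold change of 0.00 (SE 0.17, limma adjusted p = 0.999), and its direction changed with the scaling. Hoxd3 had 0.06 (SE 0.21, limma adjusted p = 0.959) and Hoxd4 -0.24 (SE 0.45, limma adjusted p = 0.909). Hoxd8 to Hoxd11 had values below 0: -0.64 for Hoxd8 (SE 0.35, limma adjusted p = 0.721), -0.78 for Hoxd9 (SE 0.44, limma adjusted p = 0.723), -1.22 for Hoxd10 (SE 0.72, limma adjusted p = 0.729) and -0.84 for Hoxd11 (SE 0.76, limma adjusted p = 0.804). Without nonresponder 6 the values were -0.32 for Hoxd8 and -0.34 for Hoxd9, and Hoxd10 and Hoxd11 fell under the filter on low values. The median over all genes tested was -0.00111.

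The 7 Hox genes tested by limma were also compared alone by exact permutation of the group labels, which allows 924 splits (2-sided, no adjustment). This gave a p under 0.05 for 1 of the 7, where 1658 of the 20640 genes, or 8.03%, had one. That gene was Hoxd10 (log2 difference -1.22, exact p = 0.00866), which is listed above 0 in 6 of 6 nonresponders and 1 of 6 responders at the fragment numbers given above. The exact p of Hoxd10 is not read as a difference between the groups. Hoxd10 passed the filter on low values only through nonresponder 6, a mouse of the higher group. Without that mouse, a choice made after seeing the data, its mean was 0.0220 FPKM, under the filter of 0.1. Its log2 difference was then -0.41, and no p is given for it. Over all mice Hoxd9 had an exact p = 0.0584 and Hoxd8 an exact p = 0.106. The smallest p possible was 0.00216, except for Hoxd11, which was above 0 in 1 mouse and could only give 1. Of the 7 genes, 0 had groups that do not overlap, against 0.504% of the genes tested. The hindbrain and nerve root list stood at 83.0 to 289 FPKM in responders, against 155 to 515 in nonresponders, and its part in the Hoxd10 difference was not tested. Of 12 meningeal and nerve fibroblast genes, 11 had lower values in responders, 7 of them at an unadjusted p under 0.05, where 4.11% of all genes were lower and 3.18% higher. That list did not overlap between the groups in its sum, which was 272 to 534 FPKM in responders, against 569 to 1649 in nonresponders. All 12 tested pituitary cell genes had higher values in responders, 11 of them at an unadjusted p under 0.05, and their sums overlapped, at 360 to 78240 FPKM in responders, against 27.4 to 1056 in nonresponders. Of these lists, 0 genes passed limma over all genes, and their part in the Hox values was not tested.

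Females and males, compared with response as a covariate, differed in 8 of 20640 genes (0.0388%) and in 0 of the 7 Hox genes by limma. At an unadjusted p under 0.05, where 921 genes or 4.46% stood in either direction and 1.86% higher in females, 2 Hox genes were higher in females. Hoxd3 ranged from 0.373 to 0.584 FPKM in 6 females, with a mean of 0.488 ± 0.0930, and from 0.183 to 0.386 in 6 males, with a mean of 0.311 ± 0.0772 (SD). Its log2 difference was 0.52 (SE 0.21, limma adjusted p = 0.874). Hoxd4 ranged from 0.201 to 0.788 FPKM in females and from 0 to 0.335 in males (log2 difference 1.08, SE 0.45, limma adjusted p = 0.874). These genes share exons, so their values are not separate measurements, and the sexes overlapped for both. The unadjusted p was above 0.05 without responder 2, 3 or 4 or nonresponder 6 for Hoxd3, and without responder 1, 3 or 4 or nonresponder 2, 3 or 6 for Hoxd4. The response difference in females minus that in males passed limma in 0 of 20640 genes (0.00%) and in 0 Hox genes. At an unadjusted p under 0.05 it stood out in 997 genes (4.83%) and in 0 Hox genes.

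The genes of proteins that bind DNA together with Hox proteins were listed in all mice. The 9 TALE cofactors, the Pbx, Meis and Pknox families of homeodomain proteins, summed to 46.5 to 52.8 FPKM in responders, against 43.4 to 50.3 in nonresponders. By limma, 0 of 9 passed over all genes and 0 had an unadjusted p under 0.05, with a median log2 fold change of 0.04. Meis2 was the highest, at 18.0 ± 1.82 FPKM in responders, against 15.5 ± 2.03 in nonresponders (SD, n = 6 each, limma adjusted p = 0.680). Meis3 was at 7.48 ± 0.370 FPKM in responders, against 7.11 ± 1.24 in nonresponders.

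Levels beside the clusters differed from gene to gene. Mtx2, a mitochondrial outer membrane gene next to cluster d on the Hoxd1 side, was at 14.7 to 16.8 FPKM in responders, against 14.8 to 17.1 in nonresponders. Evx2, a homeobox gene beside Hoxd13, was listed at 0 in all 12 mice, nonresponder 6 included. Of the 19 noncoding genes of the clusters, 5 were tested by limma and 0 passed. At an unadjusted p under 0.05, 1 was lower in responders, where 4.11% of all genes were. That gene, Hoxd3os1, was at 0.703 ± 0.0888 FPKM in responders, against 1.31 ± 0.624 in nonresponders (SD, n = 6 each, limma adjusted p = 0.675). Hotair and Hottip, long noncoding RNA genes of clusters c and a, were listed at 0 in all 12 mice. The 6 ParaHox and caudal genes summed to at most 0.0752 FPKM in responders and 0.163 in nonresponders.

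Among regulators of Hox genes and other patterning factors, 0 genes passed limma over all genes. Among all genes tested, 3.18% were higher and 4.11% lower at an unadjusted p under 0.05. Of 18 genes of retinoic acid signalling, the signal that switches on anterior Hox genes, and hindbrain regulators, 12 had lower and 6 higher values in responders (median log2 fold change -0.15), with 2 higher and 1 lower at an unadjusted p under 0.05. Crabp1, a retinoic acid binding protein gene, was at 3.61 ± 0.461 FPKM in responders, against 2.59 ± 0.625 in nonresponders (SD, n = 6 each, limma adjusted p = 0.625). Of 31 Polycomb and opposing chromatin factors, which hold Hox genes silent or active, 21 had lower and 10 higher values (median -0.10), with 2 higher and 0 lower at an unadjusted p under 0.05. Ring1, a Polycomb ubiquitin ligase gene, was at 11.2 ± 1.81 FPKM in responders, against 8.27 ± 2.62 in nonresponders (limma adjusted p = 0.617). The sensory neuron homeodomain factors, 12 genes that specify these neurons, had 6 higher and 6 lower and a median of 0.01, with 0 at an unadjusted p under 0.05. Of 19 tested anterior and cranial patterning factors, 5 had higher and 14 lower values in responders (median -0.36), with 4 lower at an unadjusted p under 0.05. Dlx5, a branchial arch and placode homeobox gene with the smallest p of the list, was at 0.0862 ± 0.0862 FPKM in responders, against 0.876 ± 0.595 in nonresponders (log2 fold change -2.21, SE 0.49, limma adjusted p = 0.333). Six4 was at 9.22 ± 1.59 FPKM in responders, against 9.24 ± 1.38 in nonresponders.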

How the data were processed

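The authors deposited 1 FPKM value per Ensembl gene and mouse, made with the aligner STAR (2.6.0a) and the assembler StringTie (1.3.5) on GRCm38 or mm10, per the submitters' processing notes. The unit is not named in the table and was inferred from the values. Settings and strand use are not given here. Symbols and exons came from GENCODE M21 (51024 identifiers matched, 317 not), and promoter sequences from RefSeq. Steps in single-exon values implied 17300000 to 38700000 fragments per mouse. Whole reads were not recovered, so no count model or interval was used, and fragment numbers are approximate.

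Genes with a mean of at least 0.1 FPKM over 12 mice entered limma 3.58.1 (R 4.3.3) as log2(FPKM + 0.1) values (trended prior, sex as covariate, Benjamini-Hochberg over all genes, 2-sided, threshold 0.05); a pseudocount understates the change of low genes. The procedure was tested on simulated data. Each library came from its own mouse, and replicate numbers were not treated as pairs. Members and lists were chosen with earlier results of these data known. Named with all values were the 8 highest Hox genes, the highest of each cluster and those with p under 0.05 in limma. Others, such as Hoxb2 and Hoxc6, and the genes Gm28309 and En1, were chosen after their values were seen. From each list a few of the genes with the highest mean or smallest p were named. Some genes that the rules cover are not reported here or drawn.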

Additional observations from a re-analysis of the deposited data

Results flagged for a closer look

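The 10 Hox genes given with the value of every mouse make 20 groups of 6 mice. Each was examined for a value far from its neighbours relative to the range of the group, except Hoxd11 in responders, listed at 0 throughout. There were 9 such values, of which 6 lay in nonresponder 6. For normally distributed values about 1 in 20 groups would hold one. That rate does not apply to values near 0, such as those of Hoxa4. Nor does it apply to Hoxd11 and Hoxc4 in nonresponders or Hoxd10 in responders, where the other 5 mice were listed at 0. There any value stands apart. In nonresponder 6 the flagged values were Hoxd8 at 6.456 FPKM (next 2.333), Hoxd9 at 4.767 (next 0.9895) and Hoxd10 at 3.978 (next 0.1159). Also flagged there were Hoxd11 at 3.179 (next 0), Hoxa4 at 0.6174 (next 0.09787) and Hoxc4 at 0.2908 (next 0). Nonresponder 4 had Hoxb4 at 0.4108 FPKM (next 0.1156). Responder 3 had Hoxa4 at 0.1799 FPKM (next 0.03622), and responder 4 had Hoxd10 at 0.02954 FPKM, where the other 5 responders were listed at 0. The 6 values of nonresponder 6 come from 1 library, and genes of a cluster are not independent of each other. That mouse also helped to put genes on the list, which was picked by means over all mice. Without it the means were 0.0220 FPKM for Hoxd10, 0 for Hoxd11 and 0.0387 for Hoxa4, which lies under Hoxa5 at 0.0473. Its flagged values are therefore partly a product of the choice of genes.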

How the results depend on the processing

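Hoxd1 was the first in rank among Hox genes, and 0 Hox genes were called, under all alternatives run for each. The lowest unadjusted p over the 26 alternatives was 0.0267 for Hoxd8, and over the alternatives run for them 0.0447 for Hoxd9 and 0.0478 for Hoxd10. The count of genes called between responders and nonresponders was 3. It was 1 with mice averaged by description number, 1 without responder 1 and nonresponder 4, and 2 to 7 when 1 mouse was left out. The interaction count, 0, was 1 with a mean of at least 1 FPKM, 1 with upper quartile scaling, 99 with array weights (whose estimation did not converge), 2 without responder 3 and nonresponder 6 (chosen after seeing the data), and 0 to 3 with 1 mouse left out. The count of 7 Hox genes with a mean of 0.1 FPKM was 3 at 0.5, 2 at 1, 33 above 0 and 17 when each mouse was scaled to the same total, and 5 to 7 with 1 mouse left out. The log2 fold change of Hoxd1 turned negative with scaling to the same total (-0.0089), with upper quartile scaling (-0.0047) and without responder 3 and nonresponder 6 (-0.014), and ran from -0.091 to 0.15 with 1 mouse left out. That of Hoxd4 was 0.12 without responder 1 and nonresponder 4, and -0.55 to 0.010 with 1 mouse left out, and that of Hoxd3 ran from -0.0024 to 0.18. That of Hoxd10, -1.22, ran from -1.94 (scaled to the same total) to -0.43 (1 FPKM added), and that of Hoxd11, -0.84, from -1.36 (averaged by description number) to -0.34 (1 FPKM added). For Hoxd8 and Hoxd9 the values nearest 0 with 1 mouse left out were those without nonresponder 6. Apart from this rise of all values under scaling, the cause of these changes was not tested.

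The labels give both groups replicate numbers 1 to 6. The deviations of same-numbered mice correlated at -0.261 to 0.1, and 0 of 6 responders correlated best with their own number. Low correlations cannot exclude a pairing, for which the labels give no sign, and the mice were treated as unpaired. With the replicate block, 0 genes were called (1512 at an unadjusted p under 0.05), and 0 Hox genes. FPKM gives no counts, so the precision of low Hox genes is limited by fragments that could only be approximated.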
